A study of Rattus norvegicus with 12 samples.

Results

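The renal cortex of male rats was examined here for 40 genes whose main product is a plasma or urinary protein of liver type. They were named by gene symbol, and probes were assigned to them through the RefSeq accession of each probe. Of the 40 genes, 39 had at least 1 probe (70 probes in all), out of 15284 named genes on the array, and Itih2 had none. The genes were proposed because transcripts such as albumin differed widely between animals and between the 2 experiments. Levels across animals, differences between the experiments and likeness to albumin are therefore given as a description, with no test.

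Gene expression was measured with 1-colour Agilent arrays in renal cortex of 12 male Sprague-Dawley rats bought at 5 weeks of age, with 1 array per animal. Rats received 200 mg/kg per day of bromodichloromethane (BDCM), a halomethane formed when drinking water is chlorinated, in corn oil, or corn oil alone, for 4 weeks, and were bled to death 24 h after the last dose. In one experiment the anaesthetic was a mixture of CO2 and O2, and in the other it was isoflurane, so that there were 4 groups of 3 animals: BDCM with CO2-O2, corn oil with CO2-O2, BDCM with isoflurane and corn oil with isoflurane. All animals are of one outbred stock and one sex, and no animal is a mutant. A level is the log2 processed signal minus the log2 75th percentile of the same array, so a level of 0 is the signal of a probe at that percentile.

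The scanner software called 67.4 to 72.5% of an array's probes well above background, and the lowest such signal lay at a level between -6.62 and -5.63. The kidney markers were present on every array: all 10 proximal tubule genes and all 9 measured genes of other cortex cells were well above background in all 12 animals. The injury marker Havcr1 (KIM-1) separated the treatments in both experiments, with levels of -0.63, 1.04 and 1.2 in BDCM animals against -4.47, -3.63 and -4.98 in corn oil animals under CO2-O2. Under isoflurane they were -2.22, 0.64 and 0.09 in BDCM animals against -5.19, -5.01 and -4.71 in corn oil animals. The 12 arrays lay on 5 slides scanned on 4 days, and none of these slides or days was shared between the experiments. A difference between the experiments therefore cannot be told apart from one between slides or scan days. Within an experiment, slide and treatment were partly bound together. Slide 2 held 2 BDCM animals of the CO2-O2 experiment and no corn oil animal. Slide 3 held 2 corn oil animals of the isoflurane experiment only, and slide 5 held 1 BDCM animal of it only.

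Albumin, transthyretin and most other abundant plasma proteins are secreted by hepatocytes, where HNF and C/EBP transcription factors drive their genes. In the kidney the small ones among these proteins are filtered at the glomerulus and taken back up by the proximal tubule through megalin and cubilin. Male rat liver also makes the alpha-2u-globulins, lipocalins of the major urinary protein (Mup) family that depend on androgen and on the male pattern of growth hormone. A few of these genes, among them those for antithrombin, fibrinogen chains and kininogen, can be transcribed in kidney itself.

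Albumin (Alb), the main plasma carrier protein, had levels of 0.60, 1.19 and 1.49 in the 3 BDCM animals of the CO2-O2 experiment, against 0.79, 1.66 and -1.44 in the 3 corn oil animals. In the isoflurane experiment its levels were -0.69, -5.79 and -8.07 in BDCM animals, against -6.28, -5.72 and -2.97 in corn oil animals. All 6 animals of the CO2-O2 experiment were well above background for Alb, while under isoflurane only BDCM animal 1 and corn oil animal 3 were. The treatment groups overlapped in both experiments. In the other 4 isoflurane animals the signal gives only an upper bound, so correlations with Alb that include them rest partly on background. In bulk tissue, fewer cells of a type and less RNA per cell cannot be told apart.

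Transthyretin (Ttr), the carrier of thyroxine and of retinol-binding protein, moved almost in step with Alb. Its levels were 0.32, 0.92 and 1.06 in BDCM animals against 0.29, 1.17 and -1.83 in corn oil animals under CO2-O2. Under isoflurane they were -0.98, -5.62 and -8.31 in BDCM animals against -8.0, -8.01 and -4.06 in corn oil animals. Corn oil animal 3 was the lowest of the CO2-O2 experiment for both genes, and the same 2 isoflurane animals were the highest. Across the 6 CO2-O2 animals the Pearson r between Ttr and Alb was 0.996, the Spearman rho was 0.943 and the slope was 0.985. Over all 12 animals r was 0.985, and for deviations from the group means it was 0.990.

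A group of 13 genes had an r of at least 0.9 with Alb across the 6 CO2-O2 animals, a limit set after the values were seen, and 25 had a lower one. By role they were 4 carriers (Ttr, the haem carrier Hpx, the haemoglobin carrier Hp and the adhesion protein Vtn), 4 protease inhibitors (Serpina1, Itih3, Itih4 and Mug1), 2 apolipoproteins (Apoa2 and Apoc1), the fibrinogen chain Fgg, rat urinary protein Rup2 and the histidine-degrading enzyme Hal. The r ran from 0.9 (Fgg) to 0.996 (Ttr), and the slopes on Alb ran from 0.585 (Apoc1) to 1.01 (Fgg). Hal was not well above background in corn oil animals 1 and 3 of that experiment, so its r of 0.939 rests partly on background. Its Spearman rho with Alb was 0.486. Corn oil animal 3 was the lowest of the CO2-O2 animals in all 13 of them, and the relation leaned on it: without it 8 genes reached 0.9. Without the 2 animals farthest from the Alb median (corn oil animals 2 and 3), 6 of the 13 kept an r of at least 0.9, and the r of the 13 ran from 0.479 (Hal) to 0.976 (Rup2). These points share their arrays and their scaling, and 6 animals carry each r.

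Under isoflurane, where Alb was well above background in 2 animals only, detection was compared rather than correlation. Mug1 and Mug1l1 (murinoglobulins, broad protease inhibitors of rodents), Itih3, Rup2, Obp3 and Mup5 were well above background on exactly the arrays on which Alb was. In 11 of the 38 other genes, the same 2 isoflurane animals (BDCM animal 1 and corn oil animal 3) had the 2 highest levels. Mug1 had levels of -2.90, -7.95 and -8.26 in BDCM animals against -7.88, -7.90 and -5.18 in corn oil animals, and Rup2 had -1.95, -7.88 and -8.19 in BDCM animals against -7.84, -7.86 and -4.72 in corn oil animals. Both genes were at background in the other 4 isoflurane animals. Hp and Hpx, by contrast, stayed well above background in all 6 isoflurane animals: Hp had levels of -1.57, -2.26 and -2.41 in BDCM animals against -3.49, -3.18 and -2.75 in corn oil animals. Vtn (vitronectin) was also well above background in all of them, with levels between -4.95 and -3.70.

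**Figure D1:**
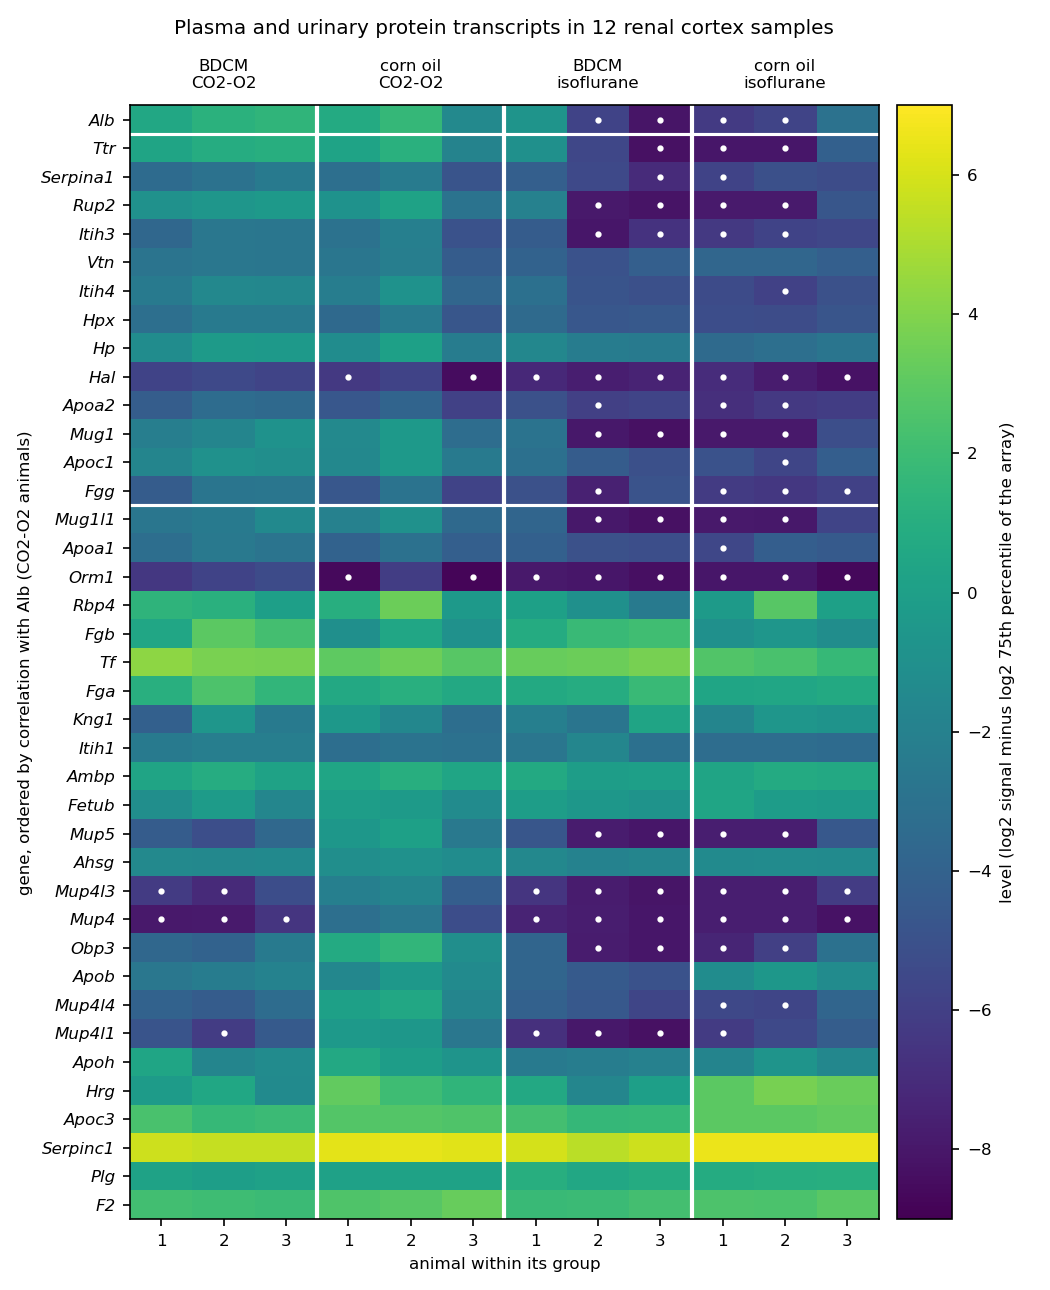
Level (colour, log2 signal minus the log2 75th percentile of the array) of 39 genes (rows) in 12 animals (columns, by group). White dots mark arrays on which the gene was not well above background. Rows below Alb are ordered by their correlation with Alb over the 6 CO2-O2 animals, and the second white line ends the 13 genes with an r of at least 0.9.

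The bases just before the start of the Alb gene are shown because the other genes are set against it. They come from RefSeq, build GRCr8, and 32 of the 40 genes had such a promoter entry (34 entries, as Fga and Apoc1 have 2 each). Capitals mark 9 bases of the HNF1 site (GTTAATNAT) and the loose C/EBP motif (TTGCNNAA), each searched on both strands in the 250 bases before the start. The stretch is chr14:17906980-17907229 on the minus strand, written 5′ to 3′.
Alb: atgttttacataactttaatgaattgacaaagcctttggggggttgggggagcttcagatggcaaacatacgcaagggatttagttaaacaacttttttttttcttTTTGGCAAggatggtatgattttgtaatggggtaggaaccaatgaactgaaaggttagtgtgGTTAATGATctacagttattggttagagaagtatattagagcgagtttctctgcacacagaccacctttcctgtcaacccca
The HNF1 letters stood in 5 of the 34 promoters (2 of them Fga's overlapping entries, the others Plg, Rup2 and Alb), or 14.7%, against 0.666% of all 33469 promoters. TTGCNNAA stood in 18 (52.9%), against 9.22%, and CTGGGAA, an element of genes that respond to IL-6, in 10 (29.4%), against 9.56%. The 18 hold 5 promoters of lipocalin genes, which are alike in sequence, and both Fga entries, so they are not separate hits. TTCNNNGAA, the STAT motif, stood in 7 (20.6%), against 7.67%, and the C/EBP palindrome TTGCGCAA, which also counts as TTGCNNAA, in 0 against 0.14%. Among the 12 promoters of Alb and the genes with an r of at least 0.9, 2 held the HNF1 letters, 3 TTGCNNAA, 5 CTGGGAA and 3 TTCNNNGAA. A match is a description of letters and not evidence of binding.

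The Mup genes and Obp3 encode the urinary lipocalins. In the CO2-O2 experiment their levels ran with Alb in the 3 corn oil animals and stood far below it in the BDCM animals. Mup4l1 departed from the order of Alb, being highest in corn oil animal 1 (-0.41, against -0.52 in animal 2), while Alb was highest in animal 2. Obp3 (alpha-2u-globulin) had levels of -3.64, -3.99 and -2.47 in BDCM animals of the CO2-O2 experiment against 0.77, 1.52 and -1.1 in corn oil animals. All 3 BDCM animals lay below all 3 corn oil animals, although Alb was as high in the BDCM animals. Relative to Alb on the same array, Obp3 stood at -4.24, -5.19 and -3.96 in BDCM animals against -0.02, -0.14 and 0.34 in corn oil animals. In the isoflurane experiment the same distance could be read in 1 animal of each treatment, and it was -3.12 in BDCM animal 1 and -0.07 in corn oil animal 3. The level itself was -3.81, -7.76 and -8.0 in isoflurane BDCM animals against -7.32, -5.94 and -3.05 in corn oil animals, where only those 2 animals were well above background.

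Other lipocalin genes also stood farther below Alb in the BDCM animals of the CO2-O2 experiment. Mup4l4 had levels of -3.98, -4.36 and -3.31 in BDCM animals of the CO2-O2 experiment against 0.07, 0.62 and -1.72 in corn oil animals. Its level less that of Alb averaged -4.98 ± 0.51 in BDCM animals and -0.68 ± 0.39 in corn oil animals (SD, n = 3 each). The difference in that distance, BDCM minus corn oil, was -4.16 for Mup5 and -4.52 for Obp3, which like Mup4l4 were well above background in all 6 animals. For Mup4, Mup4l1 and Mup4l3 no size is given, since 0, 2 and 1 of the 3 BDCM animals were well above background. Rup2, a urinary protein whose gene lies on chromosome 8 and not with the lipocalins on chromosome 5, differed in distance from Alb by -0.18 between the treatments, and Ttr by 0.14. The murinoglobulins lay in between: Mug1 stood at -2.66 ± 0.31 in BDCM animals and -2.04 ± 0.23 in corn oil animals (difference -0.62), and Mug1l1 differed by -0.80. These distances were chosen after the values were seen and are given without a test.

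In the fit across all 34218 features (limma, 1 mean per group, Benjamini and Hochberg adjustment over all features), Mup4l4 was lower in BDCM animals of the CO2-O2 experiment by 3.54 ± 0.68 (SE, 3 against 3 animals; adjusted p = 0.00585), Mup4l3 by 3.5 ± 0.74 (adjusted p = 0.00928) and Mup4 by 3.77 ± 0.59 (adjusted p = 0.00198). Mup4 was not well above background in any of these BDCM animals and was at least 6.08-fold lower in them, while Mup4l3 was well above background in 1 of the 3. Mup4l1 fell by 3.95 ± 0.72, a value that was already known when the genes were chosen. Mup4, Mup4l1 and Mup4l3 entered the fit only because all 3 corn oil animals of the CO2-O2 experiment were above background, so they had to differ, and their calls carry no weight beyond that. Mup5 and Obp3 had differences of -3.40 ± 1.09 (adjusted p = 0.053) and -3.77 ± 1.30 (adjusted p = 0.0673), which missed the threshold of 0.05. The fit shares 1 spread per feature over all 4 groups, and the isoflurane animals of these genes were spread more widely. Under isoflurane Mup4l1 had -6.78, -7.98 and -8.29 in BDCM animals, none well above background, against -6.24, -5.48 and -4.30 in corn oil animals. Corn oil animal 1 was not well above background either, so no bound on the size is given. The other lipocalin genes had differences between -1.09 (Obp3) and 0.22 (Mup4l4) there, all with overlapping groups.

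The difference between the experiments in the BDCM effect, isoflurane minus CO2-O2, was 3.90 ± 0.84 for Mup4, 3.76 ± 0.96 for Mup4l4, 3.21 ± 1.54 for Mup5 and 3.19 ± 1.04 for Mup4l3, and it was 2.68 ± 1.83 for Obp3 and 1.60 ± 1.02 for Mup4l1. These were the 6 highest values among the 39 genes. None passed adjustment (adjusted p = 0.935 for each), and 0 of 34218 features did in limma, 0% of those tested. At an unadjusted p under 0.05, 1731 features (5.06%) and 4 of the 39 genes (Apob, Mup4, Mup4l3 and Mup4l4) were found. In the isoflurane experiment Mup4 was not well above background in any of the 6 animals, nor was Mup4l3, while Mup4l4 was in 4 of them. Mup4, Mup4l1 and Mup4l3 entered the fit only through the corn oil animals of the CO2-O2 experiment. Their values, ranks and unadjusted p here carry no weight beyond that.

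Promoters of this family are printed because these genes moved together and lie together. They are chr5:79640676-79640925 (Obp3) and chr5:79759497-79759746 (Mup4), both on the minus strand, and capitals mark TTGCNNAA.
Obp3: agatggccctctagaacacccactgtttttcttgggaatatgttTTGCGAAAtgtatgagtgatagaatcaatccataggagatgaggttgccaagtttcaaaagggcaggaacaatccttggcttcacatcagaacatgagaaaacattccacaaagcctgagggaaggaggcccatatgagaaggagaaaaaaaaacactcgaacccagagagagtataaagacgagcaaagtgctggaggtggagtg
Mup4: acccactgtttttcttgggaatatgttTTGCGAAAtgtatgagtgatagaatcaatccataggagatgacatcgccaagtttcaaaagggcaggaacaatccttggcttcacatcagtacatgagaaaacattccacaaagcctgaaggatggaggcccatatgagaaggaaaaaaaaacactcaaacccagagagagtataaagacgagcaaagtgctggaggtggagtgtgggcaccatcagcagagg
Slid along each other for the best match without gaps, these promoters had 195 identical bases of 233 (83.7%). Among all 6 lipocalin genes the 15 pairs shared between 61.5 and 83.7% of the bases compared, while pairs with Rup2 or Alb shared 29.3 to 33.6%. TTGCNNAA stood in 5 of the 6 lipocalin promoters and the HNF1 letters in 0. In RefSeq order on GRCr8, at most 3 coding genes separated any of them from the next. Probes of genes as alike as these can take up each other's transcripts, so the single Mup genes are uncertain. Second probes of Mup4l1, Mup4l3, Mup4l4 and Mup5 had differences of -2.25, -1.74, -2.00 and -1.80 over both experiments, but each was tested only through the corn oil animals of the CO2-O2 experiment and adds no support.

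**Figure D2:**
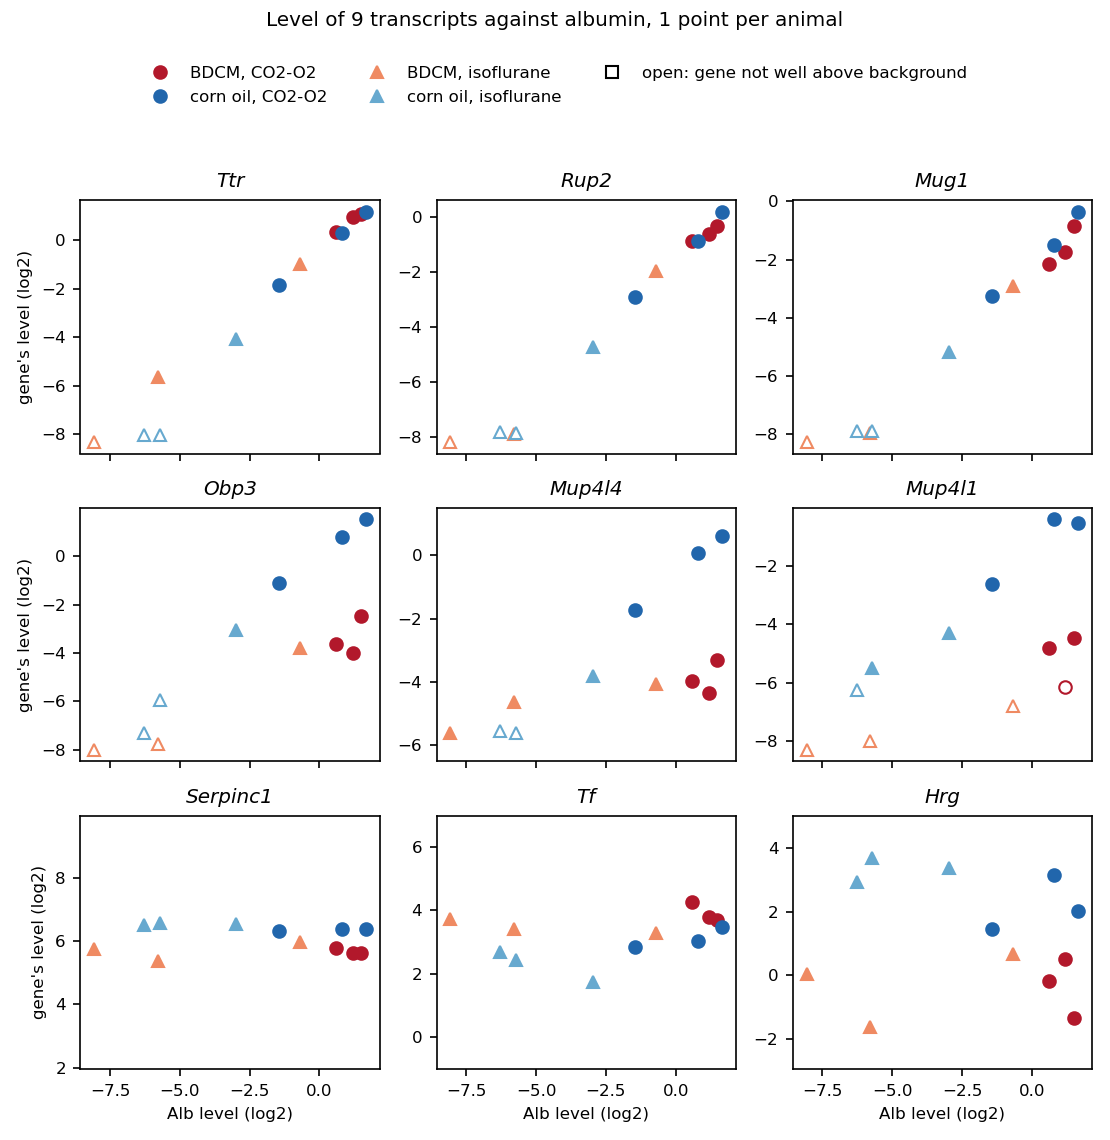
Level of 9 genes (vertical axis, log2) against the level of Alb (horizontal axis, log2), 1 point per animal. Circles are CO2-O2 and triangles isoflurane animals, in red shades for BDCM and blue shades for corn oil, and open symbols were not well above background. Ttr, Rup2 and Mug1 are higher where Alb is higher, Obp3 and the Mup genes lie lower in CO2-O2 BDCM animals than in corn oil animals of like Alb level, and Serpinc1, Tf and Hrg do not follow Alb.

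Many of the genes were well above background in every animal, whatever the level of Alb. In all, 19 of the 38 genes were well above background on all 12 arrays, against 8 arrays for Alb. Hpx, Hp and Vtn are among them, although they also belong to the 13 genes with an r of at least 0.9 with Alb. Antithrombin (Serpinc1), the inhibitor of thrombin, had levels between 5.37 and 6.56, a range of 1.19 over the 12 animals. Its r with Alb was -0.346 in the CO2-O2 animals. Plasminogen (Plg), the precursor of the fibrin-cleaving protease, had levels between -0.02 and 1.05, and prothrombin (F2) between 1.83 and 3.28. Their r with Alb, -0.658 for F2 and -0.426 for Plg, was the lowest of the 38 genes in the CO2-O2 animals. Ambp, the precursor of alpha-1-microglobulin and bikunin, lay between -0.11 and 1.01 with an r of 0.408.

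In BDCM animals of both experiments against corn oil animals (6 against 6), 5 of the 39 genes rose and 10 fell, while 24 did not pass the test. Of all 34218 features 38.1% were called in that comparison, 17.7% higher and 20.4% lower, so a share of 15 in 39 (38.5%) is near the background. The median difference was -0.048 over the 39 genes and -0.0447 over all features. Under CO2-O2 alone 2 genes (Orm1 and Fgb) rose and 9 fell, where 19.9% of features were called (10% higher and 9.89% lower). Under isoflurane alone 2 (Tf and Fgb) rose and 7 fell, where 26.1% were called (13.2% higher and 12.9% lower). Among the genes called, Mup4, Mup4l1 and Mup4l3 entered the fit only through corn oil animals, and Orm1 only through BDCM animals, of the CO2-O2 experiment. The values of Fgb, Hrg and Mup4l1 were known when the genes were chosen. An excess of these counts over the shares of all features therefore carries no weight. Of the 13 genes with an r of at least 0.9 with Alb, only Apoa2 was called in any of these 3 comparisons.

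Antithrombin fell in both experiments, though the call in each ended with slide as a fixed block (adjusted p = 0.0756 with CO2-O2 and 0.0651 with isoflurane). Serpinc1 levels were 5.80, 5.61 and 5.61 in BDCM animals against 6.37, 6.38 and 6.31 in corn oil animals under CO2-O2, and 5.97, 5.37 and 5.76 in BDCM animals against 6.50, 6.56 and 6.54 in corn oil animals under isoflurane. The groups did not overlap in either experiment, and the mean difference was -0.76 ± 0.09 (adjusted p = 0.000175). F2 levels were 2.15, 2.04 and 1.91 in BDCM animals against 2.57, 2.85 and 3.28 in corn oil animals under CO2-O2. Under isoflurane they were 1.83, 1.93 and 2.25 in BDCM animals against 2.52, 2.46 and 2.93 in corn oil animals. F2 fell by 0.75 ± 0.14 over both experiments (adjusted p = 0.00177), again without overlap.

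Of the 6 apolipoprotein genes, Apob and Apoc3 fell over both experiments, Apoa2 rose and the other 3 did not pass the test. Of all features 38.1% were called in that comparison. Apob encodes the structural protein of chylomicrons and LDL. Its levels were -2.64, -2.29 and -1.89 in BDCM animals against -1.58, -0.46 and -1.36 in corn oil animals under CO2-O2. Under isoflurane they were -3.78, -4.46 and -4.97 in BDCM animals against -1.19, -0.54 and -1.27 in corn oil animals. The mean difference was -2.27 ± 0.26 (adjusted p = 0.000108), and it was -1.14 ± 0.37 with CO2-O2 (adjusted p = 0.0543) and -3.40 ± 0.37 with isoflurane (adjusted p = 0.000114). The difference between these effects was not past the threshold (adjusted p = 0.935). Of the other 4 Apob probes, 3 also passed the test in this direction (-1.01, -2.23 and -2.01) and 1 did not (-0.53, adjusted p = 0.177). The probe at -1.01 was well above background on all 12 arrays. Those at -2.23 and -2.01 were not in any isoflurane BDCM animal, so their sizes rest partly on background. The probe at -2.01 entered the fit only through corn oil groups and adds no support. Apoc3, an inhibitor of lipoprotein lipase, fell by 0.88 ± 0.13 (adjusted p = 0.000482), with levels of 1.68 to 2.42 in BDCM animals and 2.58 to 3.13 in corn oil animals of both experiments. Apoa1, the main protein of HDL and the neighbour of Apoc3 in RefSeq order with 0 coding genes between them, had a difference of 0.42 ± 0.30 (adjusted p = 0.302). It was low, at -5.61 to -2.52, and its r with Alb was 0.764 in the CO2-O2 animals and 0.886 over all 12. Apoc1 and Apoh (beta-2-glycoprotein I) had differences of 0.49 ± 0.44 and -0.81 ± 0.38, neither past the threshold.

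Transferrin (Tf), the iron carrier, went the other way. Its levels were 4.25, 3.80 and 3.70 in BDCM animals against 3.02, 3.48 and 2.85 in corn oil animals under CO2-O2. Under isoflurane they were 3.29, 3.41 and 3.73 in BDCM animals against 2.67, 2.43 and 1.72 in corn oil animals. The groups did not overlap in either experiment. Tf rose by 1.00 ± 0.18 over both (adjusted p = 0.00192), and its second probe by 1.11 ± 0.18. Itih1, a heavy chain that links hyaluronan, rose by 0.83 ± 0.20 (adjusted p = 0.00959), with levels of -3.11 to -1.68 in BDCM animals and -3.42 to -2.88 in corn oil animals. With the level of the hepatocyte enzymes as a covariate the Itih1 call ended (adjusted p = 0.138). Apoa2, an HDL protein, rose by 0.97 ± 0.34 (adjusted p = 0.0462). That call was lost in 17 of its 25 alternatives (adjusted p 0.00203 to 0.223), among them the removal of any 1 of 10 animals.

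The 3 fibrinogen genes lie side by side, with 0 coding genes between them, and each is described in turn. Fgb, the beta chain, had levels of 0.48, 3.00 and 2.22 in BDCM animals against -1.04, 0.47 and -0.90 in corn oil animals under CO2-O2. Under isoflurane it had 0.87, 1.84 and 2.06 in BDCM animals against -0.95, -0.59 and -1.15 in corn oil animals. The groups did not overlap, though BDCM animal 1 and corn oil animal 2 of the CO2-O2 experiment nearly touched. The difference was 2.44 ± 0.43 over both experiments, a value known when the genes were chosen. Fga, the alpha chain, had levels of 1.12, 2.52 and 1.54 in BDCM animals against 0.67, 1.1 and 0.67 in corn oil animals under CO2-O2. Under isoflurane it had 0.73, 0.89 and 1.83 in BDCM animals against 0.38, 0.46 and 0.71 in corn oil animals. It rose by 0.77 ± 0.25 (adjusted p = 0.0357), a call that ended without any 1 of 6 animals (CO2-O2 corn oil 1 or 3 or BDCM 2, isoflurane corn oil 1 or 2 or BDCM 3, with an adjusted p up to 0.0748). Fgg, the gamma chain, had levels of -4.36, -2.76 and -2.69 in BDCM animals against -4.66, -2.89 and -5.76 in corn oil animals under CO2-O2. No corn oil animal of the isoflurane experiment was well above background for it. The difference of Fgg was 0.77 ± 0.59 (adjusted p = 0.333), with a 95% interval from -0.54 to 2.08.

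The promoters of these 3 neighbouring genes are given together. Capitals mark TTGCNNAA and CTGGGAA, and in Fga also the HNF1 letters on the other strand. The stretches are chr2:170652833-170653082 (Fgg, plus strand), chr2:170671919-170672168 (Fga, plus strand, the first of its 2 entries) and chr2:170700876-170701125 (Fgb, minus strand).
Fgg: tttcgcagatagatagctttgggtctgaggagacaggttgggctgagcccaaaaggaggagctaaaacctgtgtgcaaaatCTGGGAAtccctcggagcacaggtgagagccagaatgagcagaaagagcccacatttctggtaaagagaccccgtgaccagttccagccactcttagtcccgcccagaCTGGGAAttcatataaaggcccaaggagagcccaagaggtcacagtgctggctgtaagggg
Fga: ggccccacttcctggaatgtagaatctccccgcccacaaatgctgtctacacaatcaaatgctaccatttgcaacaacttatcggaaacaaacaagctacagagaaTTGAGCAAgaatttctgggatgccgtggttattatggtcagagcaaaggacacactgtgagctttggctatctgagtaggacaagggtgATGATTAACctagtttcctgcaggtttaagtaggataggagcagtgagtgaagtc
Fgb: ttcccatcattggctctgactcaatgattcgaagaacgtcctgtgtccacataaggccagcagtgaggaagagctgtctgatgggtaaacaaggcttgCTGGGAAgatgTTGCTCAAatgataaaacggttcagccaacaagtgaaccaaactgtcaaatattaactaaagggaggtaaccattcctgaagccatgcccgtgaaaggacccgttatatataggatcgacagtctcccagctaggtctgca
Fgg held CTGGGAA and no TTGCNNAA, Fga held TTGCNNAA and the HNF1 letters, and Fgb held TTGCNNAA and CTGGGAA. None of these letters tells which factor acted in these animals.

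Kng1, Hrg, Fetub and Ahsg form another run of neighbours, with 3 coding genes between Kng1 and Hrg and 0 between the other pairs. All 4 encode proteins with cystatin-like domains. Hrg, which binds heparin and plasminogen, had levels of -0.19, 0.51 and -1.34 in BDCM animals against 3.16, 2.02 and 1.45 in corn oil animals under CO2-O2. Under isoflurane it had 0.67, -1.64 and 0.03 in BDCM animals against 2.94, 3.71 and 3.37 in corn oil animals. No BDCM animal reached a corn oil animal of its experiment. The difference was -3.10 ± 0.46, also known when the genes were chosen, and the second probe gave -3.13 ± 0.46. Ahsg (fetuin-A), an inhibitor of calcification, fell by 0.39 ± 0.08 at its brightest probe (adjusted p = 0.00354), with levels of -1.49, -1.54 and -1.40 in BDCM animals against -1.11, -0.93 and -1.24 in corn oil animals under CO2-O2. Under isoflurane its levels were -1.51, -1.90 and -1.74 in BDCM animals against -1.37, -1.25 and -1.34 in corn oil animals. The other 2 Ahsg probes disagreed with it. Their r with Alb was 0.977 and 0.982 in the CO2-O2 animals, against 0.0537 for the brightest probe, and their differences were 0.32 ± 0.72 and 0.50 ± 0.67. The mean of the 3 probes gave 0.14 over both experiments (adjusted p = 0.841), so the fall of Ahsg rests on 1 probe. Fetub (fetuin-B) had a difference of -0.45 ± 0.29 (adjusted p = 0.249). Kng1 (kininogen) ranged from -4.10 to 0.35 with overlapping groups and a difference of -0.54 ± 0.73 (adjusted p = 0.589), and its 95% interval ran from -2.17 to 1.08.

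**Figure D3:**
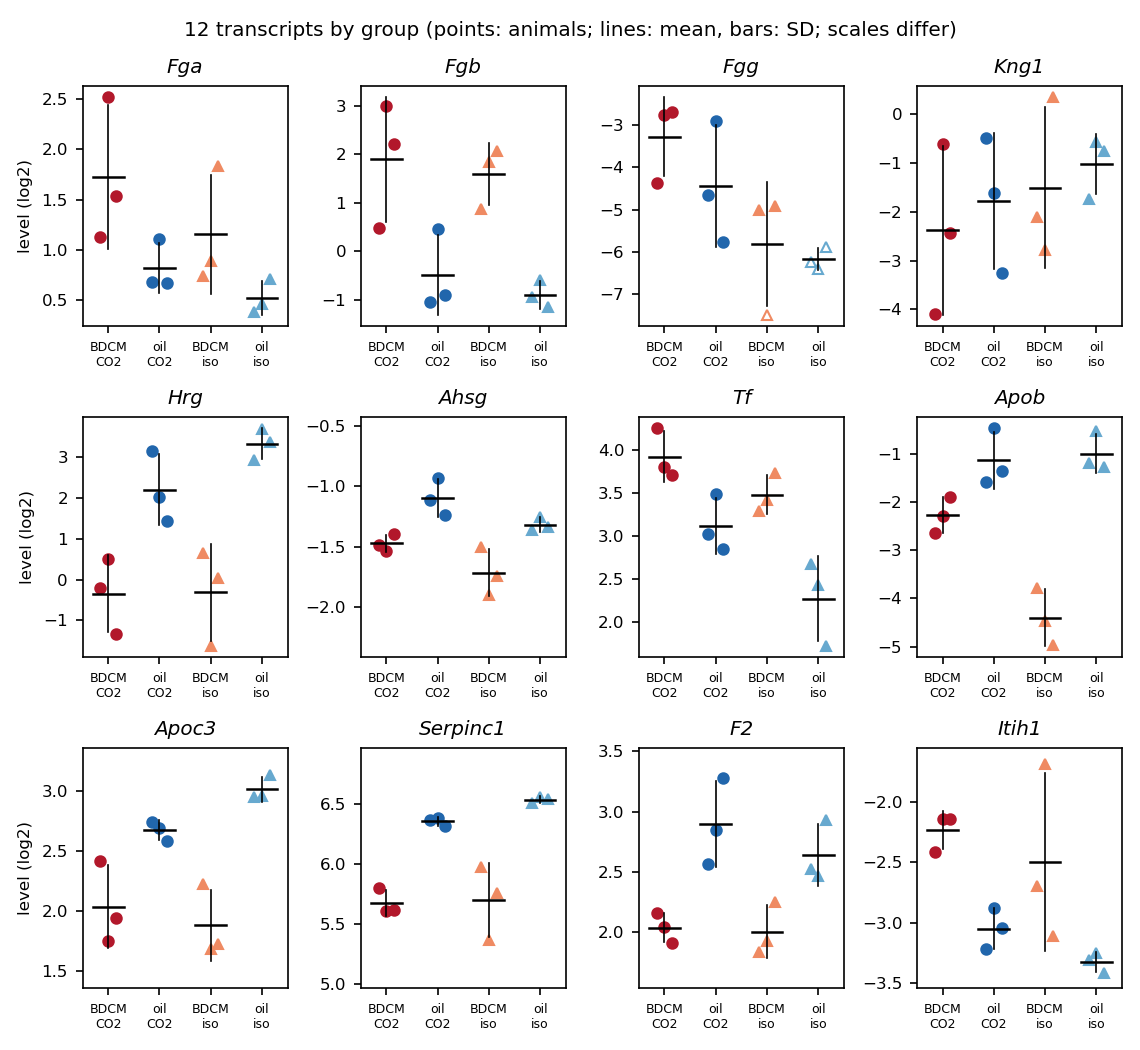
Levels (vertical axes, log2, scales differ) of 12 genes in the 4 groups. Points are animals, horizontal lines group means and bars SD (n = 3), and open points were not well above background. Fgb and Tf were higher and Hrg, Apob, Apoc3, Serpinc1 and F2 lower in all BDCM animals than in the corn oil animals of the same experiment, while Kng1 and Fgg overlapped.

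Among the remaining carriers, Rbp4, which carries retinol, had levels of 1.43, 1.15 and 0.06 in BDCM animals against 1.04, 3.39 and -0.32 in corn oil animals under CO2-O2. Under isoflurane it had 0.09, -0.99 and -2.41 in BDCM animals against -0.29, 2.87 and 0.08 in corn oil animals, with corn oil animal 2 far above the others in both experiments. Its difference was -1.24 ± 0.75 (adjusted p = 0.223). Orm1 (alpha-1-acid glycoprotein), which binds drugs and rises in the acute phase in rats, was well above background in all 3 BDCM animals of the CO2-O2 experiment (-6.40, -5.81 and -5.35), in 1 corn oil animal there (-8.60, -6.12 and -8.76) and in no isoflurane animal. It entered the fit only through that BDCM group. Its difference with CO2-O2 was 1.97 ± 0.59 (adjusted p = 0.041), which ended without any 1 of 10 animals (adjusted p up to 0.141), and the groups overlapped. Hal passed through the same group only, with levels of -5.79, -5.48 and -5.73 in BDCM animals against -6.35, -5.80 and -8.44 in corn oil animals, and a difference of 1.2 ± 0.57 (adjusted p = 0.17).

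**Figure D4:**
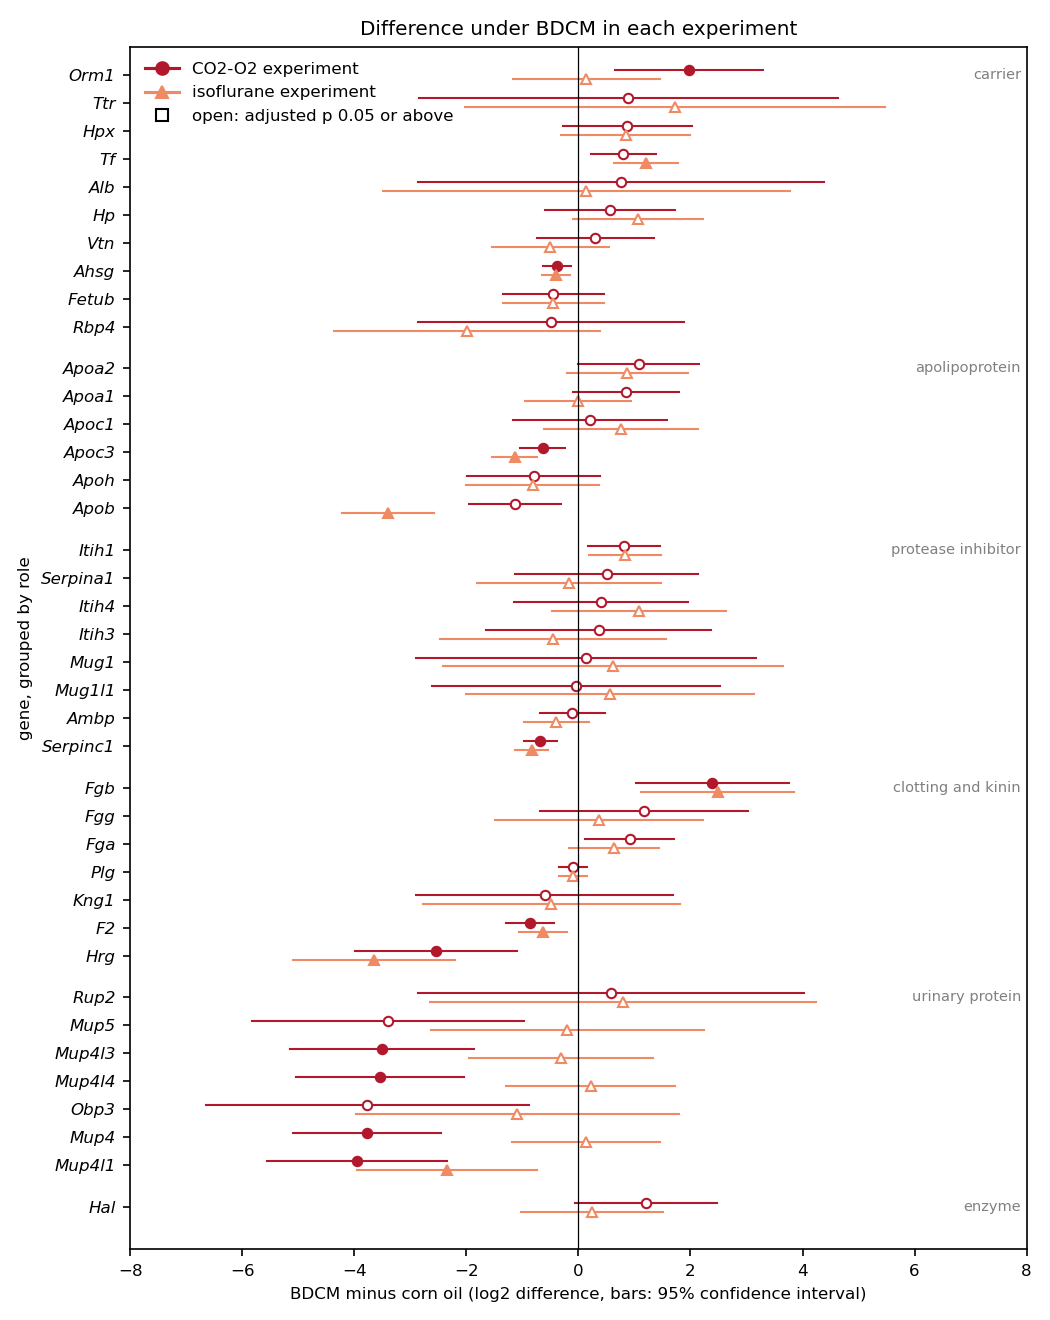
Difference between BDCM and corn oil animals (horizontal axis, log2) of 39 genes, grouped by role, in the CO2-O2 (circles) and isoflurane (triangles) experiments. Bars are 95% confidence intervals of the fit and filled symbols have an adjusted p under 0.05. Genes that follow Alb, such as Ttr and Mug1, have wide intervals across 0, while Serpinc1, F2 and Ahsg have narrow ones. The intervals of the 6 lipocalin genes lie below 0 with CO2-O2, and under isoflurane only that of Mup4l1 does.

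Wide intervals set what could be seen in the genes that follow Alb. The 95% interval of the BDCM difference over both experiments ran from -2.12 to 3.01 for Alb, from -1.34 to 3.95 for Ttr and from -1.77 to 2.52 for Mug1. For Plg, which is steady, it ran from -0.27 to 0.08. The Fgb difference of 2.44 lay within the Alb interval, so a rise of that size in Alb was not excluded with these animals.

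Enzymes and transporters of hepatocytes that are not secreted were examined as a list of 30 genes, of which 28 were measured and 21 tested. Their summed signal, as multiples of the 75th percentile, was 5.70 to 7.68 in BDCM animals against 9.28 to 10.1 in corn oil animals under CO2-O2, and 4.60 to 6.96 in BDCM animals against 6.29 to 8.57 in corn oil animals under isoflurane. Without Cyp2c11, a male-specific cytochrome P450, the sums were 5.55 to 7.62 in BDCM animals against 5.0 to 8.44 in corn oil animals under CO2-O2, and 4.52 to 6.92 in BDCM animals against 5.32 to 6.0 in corn oil animals under isoflurane. The hepatocyte genes Tat, Cyp7a1, Cyp1a2 and Sult1e1 were not well above background in any animal, and 12 genes of the list were well above background in all 12. Cyp2c7, Cyp2c13 and Ces1c had an r with Alb of at least 0.9 in the CO2-O2 animals (0.929, 0.960 and 0.986), and the median r of the 21 was -0.015. Cyp2c7 was well above background on 6 of the 12 arrays and Cyp2c13 on 5, so the r of Cyp2c13 rests partly on background. Over both experiments 1 gene of the list rose, 6 fell and 14 did not pass, led by Cyp8b1 (-2.31 ± 0.27), Cyp2c11 (-4.68 ± 0.55), Asgr1 (-1.29 ± 0.20) and Rdh7 (-1.30 ± 0.30). Of all features 17.7% rose and 20.4% fell in that comparison. Cyp8b1 was well above background on 6 of the 12 arrays and Rdh7 on 9. Their sizes rest partly on background, and their calls carry little weight, since a gene could enter the fit through groups in which it was high. The part of hepatocyte RNA in the results above was not tested.

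The same comparisons were also fitted with the mean level of those 21 genes as a covariate, which itself was -3.23 to -3.20 in BDCM animals against -3.29 to -2.46 in corn oil animals under CO2-O2 and -4.28 to -3.59 in BDCM animals against -3.51 to -3.45 in corn oil animals under isoflurane. It had an r of 0.752 with Alb over the 12 animals. Of these 21 genes 6 were themselves called lower with BDCM over both experiments and 1 higher. The covariate is thus not independent of the treatment, and under isoflurane its values did not overlap between the treatments. Calls gained or lost in this fit can arise from the covariate itself, and they are given as a measurement only. In that fit 11 of the 39 genes were higher and 6 lower over both experiments (18.6% of all features called, 9.86% higher and 8.69% lower). Tf, Apoa2 and Fgb stayed among the higher ones, joined by Hpx, Hp, Orm1, Vtn, Itih3, Itih4, Fgg and Hal. Orm1 and Hal entered the fit only through the BDCM group of the CO2-O2 experiment. Apob, Apoc3, Serpinc1, F2, Hrg and Mup4l1 stayed lower, while Itih1, Fga, Ahsg, Mup4, Mup4l3 and Mup4l4 lost their calls. For single experiments it gave 7 higher and 6 lower with CO2-O2 (9.59% of features called, 5.98% higher and 3.61% lower) and 5 higher and 4 lower with isoflurane (11% called, 7.01% higher and 4.00% lower).

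Of genes outside the 40, the 8 most like Alb over the 12 animals were Gdap2 (r = 0.976), Snx16 (0.962), Slc35a5 (0.937), the fatty acid carrier Fabp1 (0.936), Cd22 (0.916), Cyp2c13 (0.913), the methionine enzyme Mat1a (0.906) and the serum amyloid gene Saa4 (0.906). An r of at least 0.9 was reached by 9 of 12169 genes compared. Cyp2c13 was well above background on 5 of the 12 arrays and Cd22 on 8, so their r rests partly on background. Fabp1 ranged from -4.64 to -0.13 and Mat1a from -5.46 to -2.43, while Gdap2 and Snx16 moved by less than 1 on the log2 scale. Both of those follow the experiments as Alb does, and within the 6 CO2-O2 animals the r was 0.917 for Gdap2, 0.640 for Snx16 and 0.129 for Slc35a5.

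Other plasma protein genes were listed to set the 39 in context (60 listed, 51 measured, 40 tested). Over both experiments 9 rose, 9 fell and 22 did not pass, with a median difference of 0.00866. Of all features 17.7% rose and 20.4% fell in that comparison, a background that applies to the acute phase genes below as well. The clotting factor gene F10 rose by 2.87 ± 0.31, the paraoxonase Pon3 by 0.88 ± 0.10 and the protease Hgfac by 1.13 ± 0.14, and the lipocalin Apom fell by 1.29 ± 0.13. F10 was well above background on 8 of the 12 arrays, so the same limit holds for it as for Cyp8b1. Only 2 of the 40 had an r with Alb of at least 0.9 in the CO2-O2 animals. Among 11 acute phase genes tested, 4 rose (A2m by 0.99 ± 0.16, Lbp by 0.98 ± 0.21, Cd14 by 0.64 ± 0.17 and Timp1 by 0.62 ± 0.16), 2 fell and 5 did not pass.

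Kidney markers moved with the treatment, in the direction opposite to Fgb and Tf. All 10 proximal tubule genes fell over both experiments (Slc5a2 by 0.77 ± 0.07, Slc22a8 by 0.82 ± 0.12, Lrp2 by 0.64 ± 0.09 and Miox by 0.76 ± 0.11), and their summed signal was 1070 to 1360 in BDCM animals against 1740 to 1850 in corn oil animals under CO2-O2. Under isoflurane it was 973 to 1410 in BDCM animals against 1980 to 2100 in corn oil animals. Of 9 genes of other cortex cells 5 fell, led by Wt1 (-0.59 ± 0.10) and Podxl (-0.43 ± 0.10), and 4 did not pass. Of all features 20.4% fell over both experiments. The erythroid genes Hbb (-0.80 ± 0.18) and Alas2 (-1.07 ± 0.27) fell as well, as 2 of 6 blood genes. The falls of Serpinc1, F2 and Apoc3 lay within the range of the 10 tubule markers (0.25 to 1.31), and the part of these markers in them was not tested. Among 3 tested genes of adrenal, pancreas and fat 0 were called.

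Some slides held both treatments. Slide 1 held BDCM animal 2 and all 3 corn oil animals of the CO2-O2 experiment, and slide 4 held BDCM animals 1 and 2 and corn oil animal 3 of the isoflurane experiment. Within slide 1 the difference was 3.49 for Fgb, -1.69 for Hrg and -4.39 for Obp3, and within slide 4 it was 2.51, -3.85 and -2.74. These are the same animals as in the comparisons above, and each value rests on 1 animal of one of the treatments. BDCM animal 2 on slide 4 was not well above background for Obp3, so the slide 4 value of Obp3 rests partly on background.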

How the data were processed

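Each sample is the renal cortex of 1 male rat on 1 Agilent array, 12 arrays in 4 groups of 3, and the members and gene lists were chosen with earlier results of these data known. The authors deposited the scanner output. The software was Agilent Feature Extraction, named as version 10.7 in the submitters' processing notes and as 10.7.1.1 in the file headers, which give rn4 as the build of the probe annotation. Its processed signal is an intensity that is already corrected for background. They also deposited a table of values that are a linear ratio to the 75th percentile of each array, not centred (column medians 0.0999 to 0.112). In that table the 6 isoflurane columns held the values of their own arrays, while each of the 6 CO2-O2 columns matched a different animal from its own group over 13610 probes, so it served only as an alternative.

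From the deposited intensity the log2 of the processed signal minus the log2 75th percentile of the array was taken. Control spots, 84 further spike-in spots and outlier spots were left out, leaving 54 missing values among tested features, and spots of a probe were averaged. Of 61657 probe spots, 33356 had an accession and 27460 matched 1 current symbol through RefSeq. A gene was represented by its probe with the highest mean level, and 34218 of 49397 features were tested, those that in some group exceeded background in all 3 animals. limma 3.58.1 in R 4.3.3 fitted a mean per group with moderated tests, and p-values were adjusted over all features by Benjamini and Hochberg, with 0.05 as the threshold. Mup4, Mup4l1, Mup4l3, Hal and Orm1 passed the filter through 1 group only. A bound ("at least N-fold") set the bright group's mean against the higher, per array, of the dim probe's signal and the lowest signal well above background. On simulated data for the mean of both experiments (34164 features, 50 changed genes per size), 46, 82, 94 and 100% of changes of 1.5-, 2-, 4- and 8-fold were recovered. The number of arrays limits the precision. The labels name separate animals, so p-values measure the spread between animals.

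All 40 members are accounted for. Other genes are named where they are among the 8 most like Alb or among the 4 of a list with the lowest adjusted p. Havcr1 is named as the injury check, and hepatocyte genes never above background or with an r of at least 0.9 with Alb were named after their values were seen. Alternatives were the scaling, the background, the filter, the probe rule, the deposited table, slide, scan day, replicate number, a hepatocyte enzyme level, a stricter threshold and leaving out animals; scan day and the removal of both isoflurane animals with high Alb were added after the data were seen.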

Additional observations from a re-analysis of the deposited data

Results flagged for a closer look

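A pair of probes that were not used to represent their genes were each well above background in an isoflurane BDCM animal and in no isoflurane corn oil animal. The second Ttr probe reached -3.69 in BDCM animal 1, while the highest isoflurane corn oil value was -7.44. The other isoflurane BDCM animals were not well above background for it either (-7.57 and -8.28). The Ttr probe used in the results was well above background in isoflurane corn oil animal 3 (-4.06). The second Obp3 probe reached -3.08 in BDCM animal 3, where again no isoflurane corn oil animal was well above background (highest -7.76). The Obp3 probe used in the results was at -8.0 in that animal, and the second one was well above background on 2 of 12 arrays. Neither difference was tested, and their size is not given, since the corn oil values are upper bounds.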

How the results depend on the processing

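Counts of the 39 genes called are given here as higher and lower, against 2 and 9 with CO2-O2, 2 and 7 with isoflurane and 5 and 10 over both. Without the filter they were 1 and 7, 2 and 4, and 3 and 10, and with only features well above background on all 12 arrays 2 and 6, 3 and 6, and 4 and 6. With slide as a fixed block they were 2 and 4, 1 and 2, and 4 and 8, and with scan day 2 and 5, 3 and 5, and 4 and 9. With each experiment fitted alone they were 1 and 9 and 3 and 5. With the hepatocyte enzyme level as a covariate they were 7 and 6, 5 and 4, and 11 and 6, and at an adjusted p of 0.01 they were 0 and 5, 1 and 4, and 3 and 8. Normexp background gave 2 and 11, 3 and 5, and 4 and 12. Leaving out 1 animal at a time gave 0 to 3 higher and 6 to 12 lower with CO2-O2, 1 to 3 and 4 to 7 with isoflurane, 3 to 8 and 10 to 12 over both, and 0 to 0 for the difference between experiments, where every other setting run also gave 0. The number of genes with an r of at least 0.9 with Alb was 8 to 15 with 1 animal left out, against 13 with all. Of 4038 recomputed values of single genes, 3831 kept their direction and their side of the threshold, 135 lost a call and 70 gained one. The other 2 turned: with the mean of the 3 Ahsg probes its difference was 0.14 over both experiments and 0.53 with CO2-O2. Replicate numbers gave no sign of pairing (r of -0.0232 to 0.0542 between same-numbered animals), and with the replicate number as a block 2 and 6, 2 and 4, and 4 and 10 genes were called, with the calls over all features at 4711, 6615 and 11223 against 6810, 8923 and 13037 without it. Over both experiments Tf, Apob, Apoc3, Serpinc1, F2, Fgb and Hrg kept their calls in 26 of 26 alternatives and Mup4l1 in 25 of 25; the values of Fgb, Hrg and Mup4l1 were known when the genes were chosen, and Mup4l1 was tested through 1 group only, so their tally is no support. The call ended with slide as a fixed block for Ahsg (adjusted p = 0.067) and Mup4 (0.106), with the replicate block for Mup4l3 (0.0622) and Mup4l4 (0.0733), and with scan day for Mup4l4 (0.0662). The cause of these changes was not tested.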
